A study of Mus musculus with 4 samples.

Results

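Transforming growth factor beta (TGF-beta) and the activins are secreted dimers that signal through pairs of serine/threonine kinase receptors at the cell surface. Expression of 10 genes of this system was examined in lung ECs after pneumonectomy (PNX), the removal of 1 lung after which the remaining lobes regrow. The genes were chosen by symbol and included 5 ligand genes (Tgfb1, Tgfb2, Tgfb3, Inhba and Inhbb), 3 receptor genes (Tgfbr1, Tgfbr2 and Tgfbr3), the activin antagonist Fst and the signal transducer Smad3. All 10 were found among the 24063 gene symbols in the tables, and all 10 were among the 16208 genes that passed the filter on low counts.

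TGF-beta is stored in the matrix as a latent complex, and once released it binds the type II receptor, encoded by Tgfbr2, which then phosphorylates the type I receptor, encoded by Tgfbr1. Tgfbr3 encodes betaglycan, a co-receptor that presents ligand, TGF-beta2 above all, to the signalling receptors. The activated type I receptor phosphorylates SMAD2 and SMAD3, which enter the nucleus with SMAD4. Activins are dimers of the inhibin beta subunits encoded by Inhba and Inhbb, they use receptors of their own but the same SMADs, and they are neutralized by follistatin, the product of Fst. In blood vessels this pathway is known for its roles in vessel wall assembly and in endothelial quiescence, and in the lung it is known for matrix deposition.

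ECs were taken from the lungs of C57BL6 mice (C57BL6J in the paper's methods), 8 weeks of age, either 7 days after PNX or after a sham operation that opened the chest without taking a lung. Each group had 2 libraries, each of them a pool of the cells of 2 mice, and cells were captured on magnetic beads through CD31, a surface protein that platelets and some leukocytes also carry. A further column pass and a flow cytometry check for CD31, VE-cadherin and absence of CD45 are described in the paper's methods. The paper's methods and the labels name male mice only, but Xist, a transcript of the inactive X chromosome, had between 29890 and 36875 counts per library, and 4 Y chromosome genes (Ddx3y, Eif2s3y, Kdm5d and Uty) had 0 counts in every library. This held for all 4 libraries, so that no result could be given without them. Counted over 1 transcript per gene, its most abundant, the libraries held between 41367438 and 50952879 counts.

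All 12 endothelial markers examined were detected, with between 507183 and 512541 summed normalized counts in sham libraries and between 434801 and 436957 after PNX. Markers of other cells were present in both groups and differed between them. The most abundant was Sftpc of alveolar type 2 cells, with means of 171015 normalized counts in sham and 111027 after PNX. This was above every endothelial marker, of which Cdh5 was highest (110259 and 94599). The 5 alveolar type 2 markers summed to 295074 in sham and 189609 after PNX. Levels given below are those of the whole captured fraction, also where it is called ECs. The summed level after PNX was 2.34 times that in sham for 7 macrophage markers, 2.3 times for 6 fibroblast markers, 2.08 times for 6 mesothelial markers, 1.49 times for 5 platelet markers and 1.31 times for 6 smooth muscle and pericyte markers. It was 0.855 times the sham level for the endothelial list, 0.643 times for 5 alveolar type 2 markers, 0.799 times for 4 mast cell markers, 0.566 times for 4 B cell markers and 0.541 times for 5 T cell markers, and 1.06 times for 5 markers shared by leukocytes. Single genes carried 2 of these sums. Without Col1a2 the other 5 fibroblast markers came to 1.1 times the sham level. Pdgfra, the most abundant of these 5, was lower (log2 fold change -0.23), and Tcf21 stood at 0.02. The remaining markers rose, Dpt by 0.71, Pi16 by 0.63 and Lum by 4.26, from 58.2 to 1129 normalized counts. Without Kit the other 3 mast cell markers came to 1.39 times the sham level. Of these Cpa3 was higher (log2 fold change 0.63) and Ms4a2 lower (-0.69), while Fcer1a at 0.75 did not pass the call used below. By the edgeR call used below, which found 29.3% of all genes tested higher and 27.8% lower, genes were higher and lower in 7 and 0 of the macrophage, 4 and 1 of the fibroblast, 6 and 0 of the mesothelial, 4 and 0 of the platelet, 5 and 0 of the smooth muscle and pericyte, 3 and 1 of the shared leukocyte, 1 and 2 of the mast cell, and 1 and 10 of the endothelial markers. All T cell, B cell and alveolar type 2 markers were lower. No marker of any list was at 0. TGF-beta and activin genes are also expressed by cells other than ECs. The part of the other cell types in the results below, whether their markers rose or fell, was not tested. In such bulk libraries fewer cells of a type and less RNA per cell cannot be told apart.

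**Figure D1:**
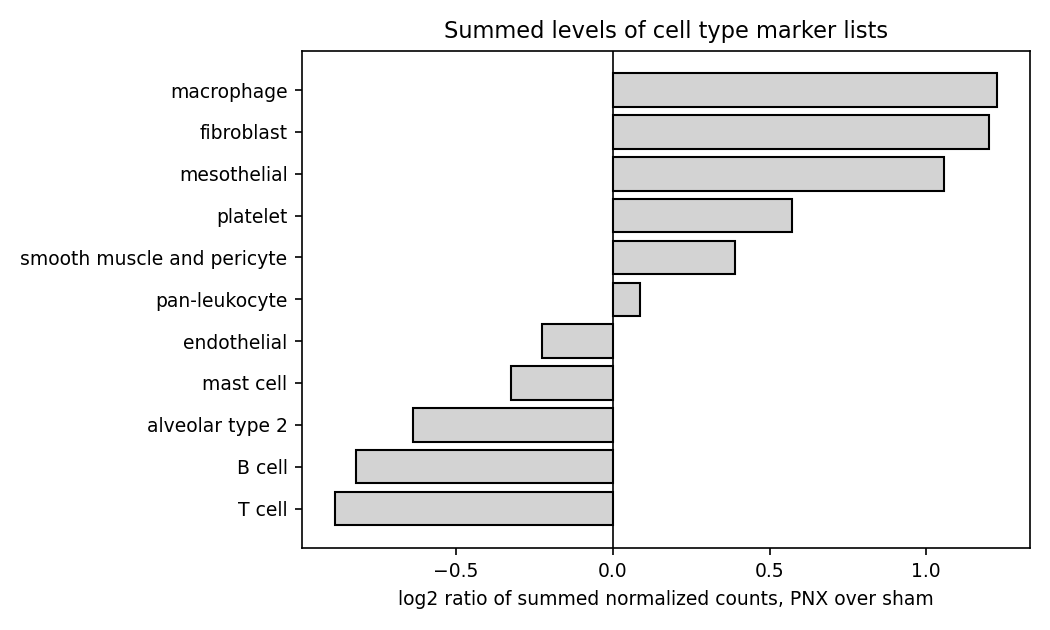
Log2 ratio of the summed normalized counts of each cell type marker list, mean of 2 post-PNX libraries over mean of 2 sham libraries (x axis), with 1 bar per list (y axis). The macrophage, fibroblast and mesothelial lists lie above 1, the fibroblast list mostly through Col1a2, and the endothelial list lies at -0.23.

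Post-PNX ECs had 6 of the 10 genes at higher and 3 at lower levels when called by edgeR (quasi-likelihood F test, threshold 0.01 on the Benjamini-Hochberg value over all genes tested), and for Smad3 the test did not pass. Across all genes tested, 29.3% were higher and 27.8% lower by the same rule. The same 6 and 3 genes had post-PNX libraries that did not overlap the sham libraries, a state found in the upward direction in 40.8% and in the downward direction in 40.5% of all genes tested. With a log2 fold change beyond 1 required as well, 1 of the 10, Inhba, was called higher (background 5.9%) and none was called lower (background 1.66%), as the largest fall among the 10 was a log2 fold change of -0.40. The 10 genes had a median log2 fold change of 0.25, against 0.00 for all genes tested.

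**Figure D2:**
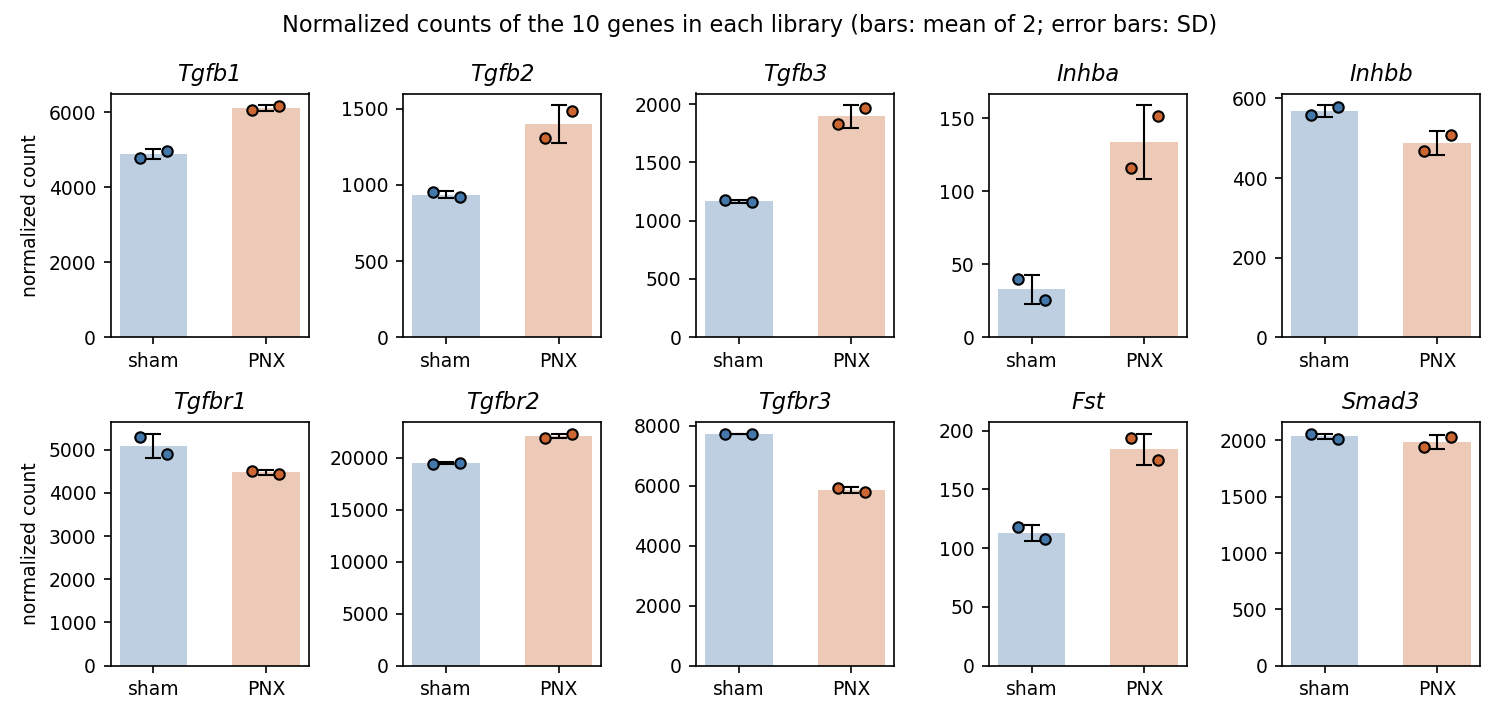
Normalized counts (y axis, from 0) of each of the 10 genes in the 2 sham and the 2 post-PNX libraries (x axis), with points for libraries, bars for the mean of 2 and error bars for the SD. The groups overlap only for Smad3.

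The level of a gene per transcript length was compared between genes as TPM, a share of all transcripts after division by length. In sham ECs the order was Tgfbr2 (141 TPM), Tgfb1 (80.8), Tgfbr3 (44.3), Tgfbr1 (31.2), Smad3 (13.9), Tgfb3 (11.9), Tgfb2 (6.86), Inhbb (4.63), Fst (1.68) and Inhba (0.741), with no overlap between neighbours in their 2 libraries. The receptor Tgfbr2 and the ligand Tgfb1 were thus the most abundant of the set, above 95.3% and 90.6% of the genes tested. Inhba was the least abundant, above 10.7% of them. After PNX the order changed at 2 places. Tgfb3 (19.0 TPM) stood above Smad3 (13.2), and Inhba (2.96) stood beside Fst (2.67), a pair whose libraries overlapped.

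Tgfb1, on chromosome 7 from 25687002 to 25705077 (mm10, GRCm38), encodes the ligand known for immune regulation and fibrosis, and the tables held 1 transcript row for it. It stood at 4787 and 4972 normalized counts in sham against 6062 and 6164 after PNX. Both post-PNX libraries were above both sham libraries. The mean rose from 4879 ± 131 (SD, n = 2) to 6113 ± 72.1 (SD, n = 2), that is by 0.33 on the log2 scale (SE 0.026, edgeR adjusted p = 3.7e-17). The change was 1.25-fold, and 19.4% of all genes tested had a higher log2 fold change.

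Tgfb2, on chromosome 1 from 186622787 to 186709697, encodes the isoform that depends most on betaglycan for binding. It stood at 951 and 919 normalized counts in sham against 1310 and 1487 after PNX, so the post-PNX libraries were both higher but stood further apart. The log2 fold change was 0.57 (SE 0.051, edgeR adjusted p = 1.8e-15), a 1.49-fold rise. Tgfb3, on chromosome 12 from 86056743 to 86079041, encodes the third isoform, known for palate fusion. It stood at 1174 and 1156 normalized counts in sham against 1827 and 1963 after PNX. This was the largest rise of the 3 TGF-beta genes, 1.62-fold, with a log2 fold change of 0.70 (SE 0.044, edgeR adjusted p = 5.7e-22).

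Summed over the 3 isoforms, TGF-beta ligand transcripts came to 98.3 and 101 TPM in the sham libraries and to 126 and 130 TPM in the post-PNX libraries. Tgfb1 made up 80.7% and 81.6% of this sum in sham and 78.0% and 76.7% after PNX, and Tgfb3 made up 12.2% and 11.7% in sham and 14.5% and 15.1% after PNX. Neither share overlapped between groups. With 2 libraries against 2 an exact permutation test cannot give a two-sided p under 0.333, which is the value found for both shares and for each of the TPM ratios given below. Tgfb1 thus remained the main isoform in every library.

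**Figure D3:**
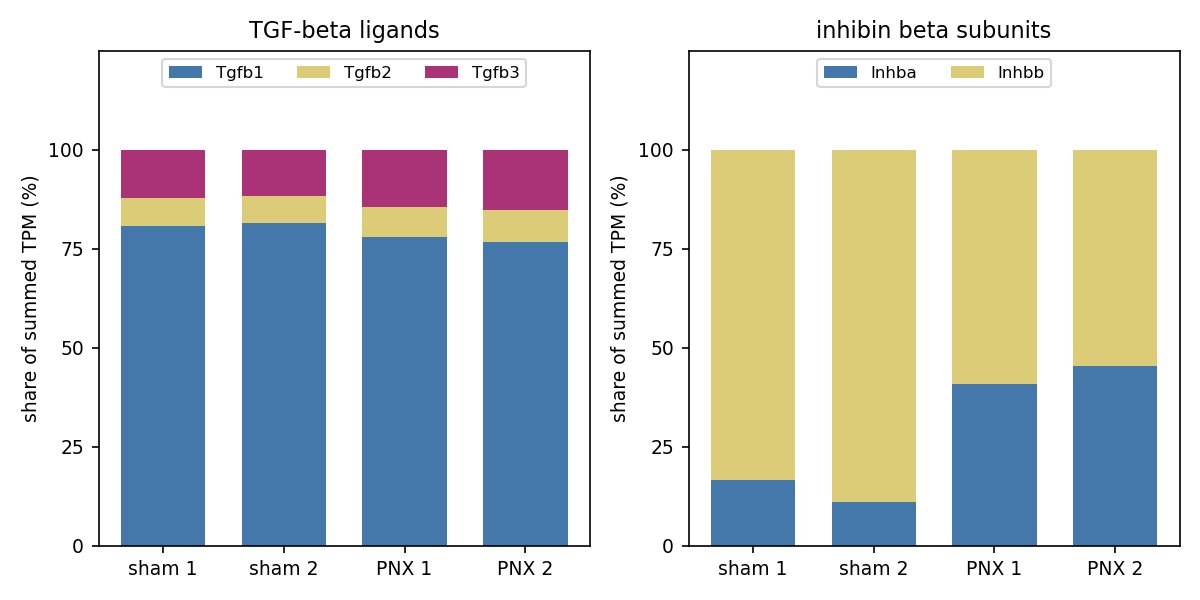
Share of the summed TPM (y axis, %) of the 3 TGF-beta genes (left) and of the 2 inhibin beta subunit genes (right) in each library (x axis). Tgfb1 holds between 76.7% and 81.6% of the left bars, and Inhba goes from 10.9% and 16.6% of the right bars in sham to 40.8% and 45.3% after PNX.

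The bases upstream of the transcript start are shown for the 2 TGF-beta genes that had an entry in the RefSeq promoter table (GRCm38.p6) and rose, because they differ in kind. For 7 of the 10 genes a window was found. The 250 bases before the start were searched for 5 motifs, on both strands for CAGAC (the SMAD core), TGANTCA (AP-1), GGAATG (TEAD) and GGGCGG (the GC box), and on the gene's strand for TATAAA (the TATA box). Of 32851 windows of this length, 42.2%, 6.75%, 12.6%, 32.7% and 7.59% held them, in that order. The RefSeq starts of Tgfb2 and Inhba lie inside the gene spans given here, which extend further upstream. Sequences are written 5′ to 3′ on the gene's strand, and capitals mark every match of a motif. In the windows printed no match overlapped a match of another motif.
Tgfb1, chr7:25686752-25687001, plus strand: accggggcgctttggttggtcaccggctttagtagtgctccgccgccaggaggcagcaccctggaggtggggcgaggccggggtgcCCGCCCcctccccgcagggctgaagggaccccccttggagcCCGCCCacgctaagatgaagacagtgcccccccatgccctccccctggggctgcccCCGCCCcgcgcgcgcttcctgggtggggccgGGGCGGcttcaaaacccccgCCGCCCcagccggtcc
Tgfb2, chr1:186705990-186706239, minus strand: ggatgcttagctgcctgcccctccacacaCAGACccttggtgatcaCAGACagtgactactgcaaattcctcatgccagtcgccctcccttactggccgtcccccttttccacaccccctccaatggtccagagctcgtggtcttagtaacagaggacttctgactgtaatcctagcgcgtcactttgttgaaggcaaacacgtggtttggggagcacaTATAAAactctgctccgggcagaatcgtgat

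The Tgfb1 window had 75.2% G and C, 21 CpG and 5 matches of the GC box, without a TATA box. The Tgfb2 window had 53.6% G and C, 8 CpG, 2 matches of the SMAD core and a TATA box that began at position -31 (the base before the start being -1). Over all windows the medians were 52.4% G and C and 6 CpG. No AP-1 or TEAD match stood in either window. A match describes the letters of the window only.

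Inhba, on chromosome 13 from 16004256 to 16031609, encodes the inhibin beta A subunit, of which activin A is the homodimer. Raw counts were 44 and 25 in sham against 118 and 136 after PNX, which came to 39.9 and 25.5 against 116 and 152 normalized counts. The lowest post-PNX library was above the highest sham library, but relative to their mean the sham libraries stood further apart than for any other of the 10 genes. The mean rose 4.0-fold, from 32.7 ± 10.2 (SD, n = 2) to 134 ± 25.2 (SD, n = 2), with a log2 fold change of 2.00 (SE 0.20, 95% interval from 1.61 to 2.39, edgeR adjusted p = 8.9e-14). Of all genes tested, 2.35% had a higher log2 fold change.

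Inhbb, on chromosome 1 from 119415463 to 119422248, encodes the beta B subunit of activin B. It stood at 558 and 579 normalized counts in sham against 468 and 509 after PNX. The groups did not overlap, and the gap between them was about as wide as the gap between the 2 post-PNX libraries. The log2 fold change was -0.22 (SE 0.069, edgeR adjusted p = 0.0044). This call did not hold in DESeq2's Wald test (adjusted p = 0.082), nor without the second sham library (0.034) or the first post-PNX library (0.11, edgeR), nor with counts summed over transcripts, which changes the other genes and not Inhbb (0.013). Over the 12 alternatives its adjusted p lay between 0.0025 and 0.95.

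By TPM the ratio of Inhba to Inhbb was 0.199 and 0.122 in sham ECs and 0.69 and 0.828 after PNX. The 2 subunits together came to 5.45 and 5.29 TPM in sham and to 6.29 and 7.41 TPM after PNX, so the sum moved less than the ratio. The windows of these genes, whose log2 fold changes had opposite signs with scaling to all genes, are shown from the same RefSeq table with the same capitals.
Inhba, chr13:16011601-16011850, plus strand: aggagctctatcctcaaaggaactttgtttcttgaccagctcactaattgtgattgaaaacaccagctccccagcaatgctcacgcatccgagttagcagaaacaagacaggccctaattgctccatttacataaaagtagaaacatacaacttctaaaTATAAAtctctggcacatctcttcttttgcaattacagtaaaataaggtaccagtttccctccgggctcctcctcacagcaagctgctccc
Inhbb, chr1:119422249-119422498, minus strand: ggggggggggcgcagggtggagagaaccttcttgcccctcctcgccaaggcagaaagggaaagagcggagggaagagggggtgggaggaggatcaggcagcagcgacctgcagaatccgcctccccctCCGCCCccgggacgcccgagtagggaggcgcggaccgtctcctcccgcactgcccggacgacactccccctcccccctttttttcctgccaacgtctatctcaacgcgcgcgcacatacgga

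The Inhba window had 43.2% G and C and 3 CpG, with a TATAAA at position -91. The Inhbb window had 68.0% G and C and 21 CpG, with 1 GC box at position -122. Neither held a match of the SMAD core, AP-1 or TEAD letters.

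Fst, on chromosome 13 from 114452262 to 114458989, encodes follistatin, which binds activins and blocks access to their receptors. It stood at 118 and 108 normalized counts in sham against 194 and 175 after PNX, and the groups did not overlap. The rise was 1.63-fold, a log2 fold change of 0.71 (SE 0.13, edgeR adjusted p = 2.7e-06). Both the antagonist and the beta A subunit were therefore higher after PNX, at low levels.

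The receptor genes moved in different directions. Tgfbr2, on chromosome 9 from 116087695 to 116175363, encodes the type II receptor that binds TGF-beta first. It stood at 19405 and 19554 normalized counts in sham against 21953 and 22278 after PNX, a rise of 13.5% (log2 fold change 0.18, SE 0.019, edgeR adjusted p = 4.4e-13). Both of its transcript rows had the same counts to within 1 count in each library, so that the isoforms could not be told apart.

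Tgfbr1, on chromosome 4 from 47353222 to 47414926, encodes the type I kinase ALK5. It stood at 5290 and 4893 normalized counts in sham against 4517 and 4439 after PNX. The sham libraries were both higher, though they stood further apart than the post-PNX libraries. Its level fell by 12.1% (log2 fold change -0.19, SE 0.029, edgeR adjusted p = 8.1e-08). Tgfbr3, on chromosome 5 from 107106567 to 107289629, encodes betaglycan. It had 7736 normalized counts in both sham libraries and 5917 and 5789 after PNX, and it fell by 24.3%, the most of the set (log2 fold change -0.40, SE 0.024, edgeR adjusted p = 1.1e-22). Of all genes tested, 12.4% had a lower log2 fold change.

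By TPM the ratio of Tgfbr2 to Tgfbr1 was 4.34 and 4.73 in sham and 5.75 and 5.94 after PNX. The ratio of Tgfbr3 to Tgfbr2 was 0.315 and 0.313 in sham and 0.213 and 0.206 after PNX. A ratio between genes does not depend on how libraries are scaled, and neither ratio overlapped between groups.

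Smad3, on chromosome 9 from 63646766 to 63757994, encodes the transducer of TGF-beta and activin signals that binds DNA. It stood at 2054 and 2017 normalized counts in sham against 1939 and 2029 after PNX, and the groups overlapped. The log2 fold change was -0.04, with a 95% interval from -0.11 to 0.04 (edgeR adjusted p = 0.37). Transcript level does not measure the phosphorylation through which SMAD3 is activated.

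When libraries were scaled to the 12 endothelial markers in place of all genes, the median of all genes moved up by 0.23 on the log2 scale, and the 10 genes gave 7 higher and 1 lower in place of 6 and 3. Of all genes tested, 55.3% were higher and 10.1% lower on that scale. On that scale the log2 fold change of Tgfbr1 was 0.04 (adjusted p = 0.27) and that of Inhbb 0.01 (adjusted p = 0.95), while that of Smad3 was 0.19 (adjusted p = 6.4e-05, all from the edgeR test). Tgfbr3 remained lower at -0.18, and the 3 TGF-beta genes, Inhba, Fst and Tgfbr2 remained higher at between 0.41 and 2.23. The directions of Tgfbr1, Inhbb and Smad3 relative to sham thus depended on this choice of scale. The 12 markers themselves did not move together. With scaling to all genes their log2 fold changes ran from 0.11 for Emcn, through -0.01 for Pecam1, which did not pass, to -0.50 for Tek. Scaling to other choices of endothelial markers was not run. Over the 12 alternatives the adjusted p of Tgfbr1 lay between 1.0e-11 and 0.27 and that of Smad3 between 6.4e-05 and 0.96.

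**Figure D4:**
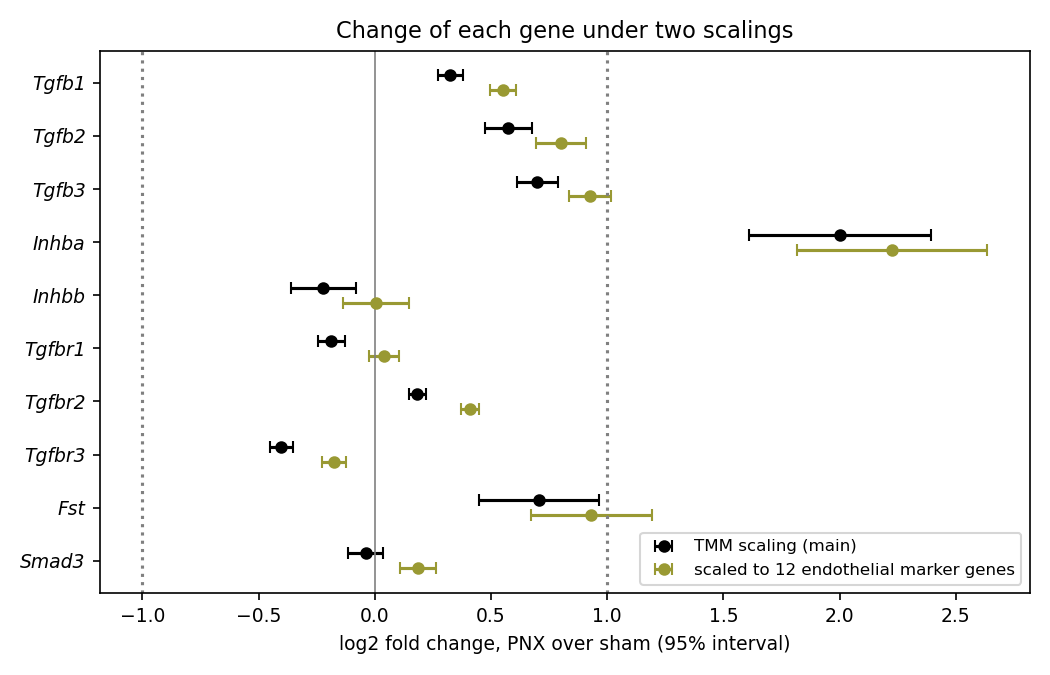
Log2 fold change of post-PNX over sham ECs (x axis) with its 95% interval for each of the 10 genes (y axis), with TMM scaling (black) and with scaling to 12 endothelial markers (olive). All points shift right by about 0.23 under the second scaling, which moves Tgfbr1, Inhbb and Smad3 across 0.

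The rest of the pathway was described with 5 lists holding 60 different genes, of which 56 were tested. Of these 26 were higher and 20 lower at an adjusted p under 0.01, against 29.3% and 27.8% of all genes tested, and 8 were higher and none lower with a log2 fold change beyond 1 as well, against 5.9% and 1.66% (same edgeR test). The lowest log2 fold change among them was -0.80, for Bmpr2, which encodes a type II receptor for bone morphogenetic proteins.

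Among 14 genes for latent TGF-beta storage and activation, 11 were higher and 2 lower (all genes 29.3% and 27.8%), with a median log2 fold change of 0.32. Ltbp2, a latent TGF-beta binding protein family member of elastic fibres, rose from 3782 to 7746 normalized counts (log2 fold change 1.03), and Itgb8, the beta chain of an integrin that activates latent TGF-beta, rose from 21.9 to 81.4 (log2 fold change 1.87). Ltbp4, a member of the same family, had means of 35391 and 35766 normalized counts in sham and after PNX and did not pass (edgeR adjusted p = 0.46). Thbs1, a matrix glycoprotein that can release TGF-beta from latency, rose with a log2 fold change of 0.34. Among the falls was Lrrc32, which encodes GARP, a protein that tethers latent TGF-beta at the cell surface, with a log2 fold change of -0.73.

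Of 12 other activin-class ligands and extracellular regulators, 8 were tested and 4 of these were higher and none lower at an adjusted p under 0.01 (all genes 29.3% and 27.8%). At an unadjusted p under 0.05, 1 of the list was lower, Tdgf1, with a log2 fold change of -0.61, and DESeq2's Wald test also called none lower and 1 higher (all genes 20.2% and 21.6% in that test). Dcn, which encodes decorin, a matrix proteoglycan that binds TGF-beta, rose 4.94-fold from 2863 to 14145 normalized counts. Nodal, a ligand of embryonic axis formation, stood at 11.8 and 10.2 normalized counts in sham against 31.4 and 26.7 after PNX (log2 fold change 1.40, adjusted p = 0.00046, edgeR). The count of 4 was 2 without the first sham library, 2 without the first post-PNX library and 3 without either of the others. Fstl3 and Bambi, an activin antagonist and a decoy receptor, did not pass, with log2 fold changes of 0.12 and 0.07. Inhbc, Inhbe and Mstn had 0 counts in every library, which allows a level of up to 3 counts, or between 0.0589 and 0.0725 CPM.

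Of 9 other receptors and co-receptors, 6 were lower and 1 higher (all genes 27.8% and 29.3%), with a median log2 fold change of -0.30. Acvrl1 and Eng, which encode the endothelial type I receptor ALK1 and its co-receptor endoglin, were the most abundant and fell with log2 fold changes of -0.43 and -0.54. The rise was in Cd109, a co-receptor that dampens TGF-beta signalling, from 80.0 to 433 normalized counts (log2 fold change 2.43). Of 14 other Smads and intracellular regulators, 10 were lower and 2 higher (all genes 27.8% and 29.3%), with a median of -0.20. Smad6, an inhibitory Smad, fell with a log2 fold change of -0.34, and Ski, a nuclear repressor of Smads, had one of -0.02 and did not pass. With scaling to the endothelial markers (all genes 10.1% lower and 55.3% higher), the receptor list gave 3 lower and 2 higher genes with a median of -0.08, and the intracellular list gave 4 lower and 5 higher with a median of 0.03, so that its direction turned. Without any 1 of the 4 libraries, 1 and not 2 genes of the intracellular list were higher.

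Of 13 genes known to be induced by TGF-beta, 8 were higher and 4 lower (all genes 29.3% and 27.8%), with a median log2 fold change of 0.42. Fn1 (fibronectin), Col1a1 (a chain of type I collagen) and Tgfbi (a secreted matrix protein) rose with log2 fold changes of 2.22, 2.34 and 1.20, and Postn, another matrix protein, rose from 11459 to 22899 normalized counts, just short of 1 on the log2 scale. The 4 lower genes were Smad7 and Skil, both negative feedback regulators also counted in the intracellular list, Cdkn2b, a cell cycle inhibitor, and Nox4, an oxidase, with log2 fold changes of -0.31, -0.20, -0.39 and -0.23. Ccn2, listed in the tables as Ctgf, did not pass, with means of 11460 and 11295 normalized counts. With scaling to the endothelial markers 9 of this list were higher and 2 lower (all genes 55.3% and 10.1%), and Skil had a log2 fold change of 0.02 and Nox4 one of -0.01. These genes are also controlled by other signals, and several of those that rose are abundant in fibroblasts. The summed fibroblast markers were higher after PNX, mostly through Col1a2, and Lum, Dpt and Pi16 rose as well. Pdgfra, of the same list, was lower (log2 fold change -0.23), and Tcf21 at 0.02 did not pass. The part of fibroblasts in these values was not tested.

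**Figure D5:**
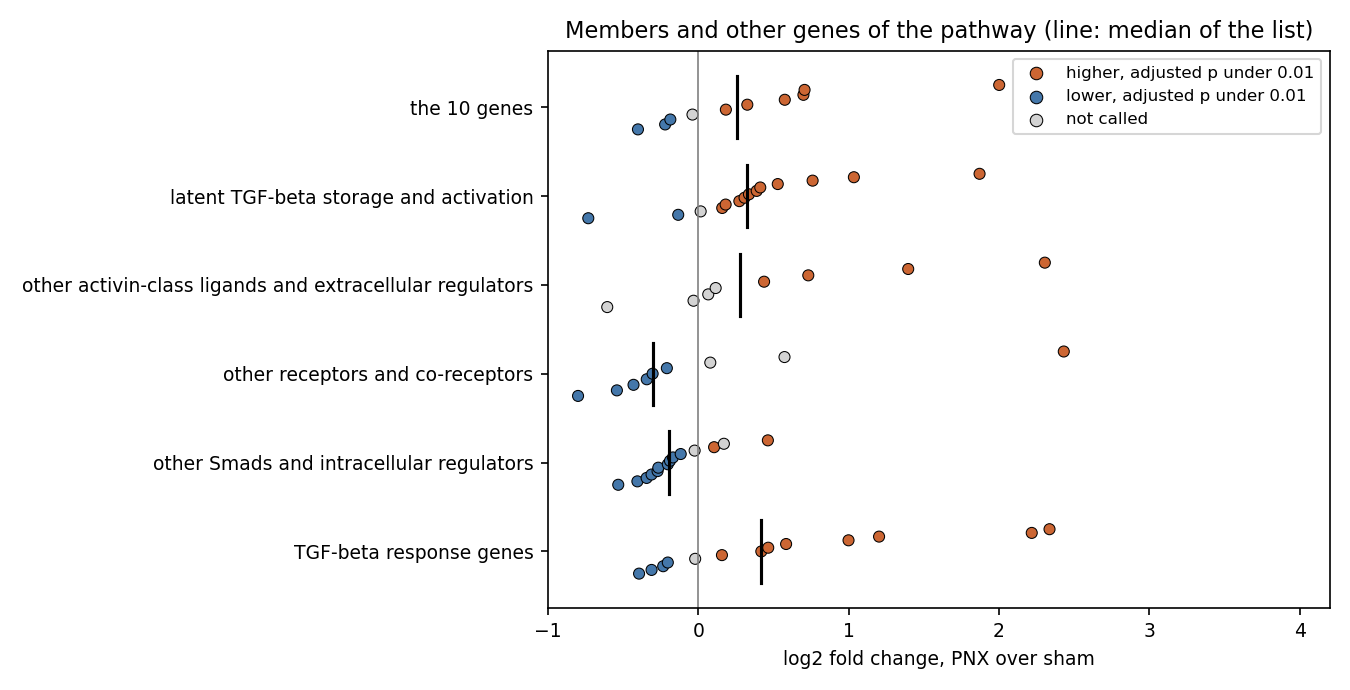
Log2 fold change of post-PNX over sham ECs (x axis) of each tested gene of the 10 and of the 5 pathway lists (y axis), with 1 point per gene coloured by the call at an adjusted p under 0.01 and a black line at the median of each list. The medians of other receptors and of other intracellular regulators lie below 0 with the TMM scaling plotted, the latter above 0 with scaling to the endothelial markers.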

How the data were processed

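RNA of CD31-captured lung ECs was sequenced by the authors from 2 sham and 2 post-PNX pools, each of 2 mice. A strand-specific poly(A) kit and paired-end reads were used. The reads were aligned to mm10, with STAR named in the submitters' processing notes. The counting program, its strand setting and versions are not given in the sources used here. The authors deposited whole-number counts per RefSeq transcript, without normalization. Each symbol was represented by its transcript row of highest summed count. The deposited TPM values were used as levels per length, and lengths were derived from the deposited FPKM values.

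Counts were tested in R 4.3.3 with edgeR 4.0.16 (filterByExpr, TMM factors between 0.9985 and 1.0026, quasi-likelihood F test without covariates, Benjamini-Hochberg adjustment over 16208 genes). Thresholds were an adjusted p under 0.01 and, with it, a log2 fold change beyond 1. The standard error is the log2 fold change divided by the square root of F. Normalized counts were set to the average effective library size. The steps were tested on simulated data. Totals over all transcript rows lay between 65763553 and 81282871, and 3 counts came to between 0.0589 and 0.0725 CPM. This floor covers counting error only. The p-values rest on the spread between the 2 libraries of each group, which was little beyond counting error (chi-square below). They therefore give little measure of the spread between animals.

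The 10 genes, the pathway lists and the marker lists were chosen with earlier results of these data known. All 10 genes are named, together with the genes of each list past both thresholds and the 2 others of each list with the highest level per length. Other genes of the lists were named after their values were seen. The second transcript row of Tgfbr2 was not tested. The alternatives were scaling by DESeq2 size factors, by library size or by 12 endothelial markers, no filter or a mean of at least 50 counts, DESeq2 1.42.0, glmTreat, a block for the replicate number, summing of a gene's transcripts, and each library left out. For the pathway lists they were added after the data were seen, as were the marker sums without their most abundant gene. Libraries of 1 number come from different mice, and their deviations from the group means correlated with r = 0.030 over genes, so the numbers were not taken as pairs. The chi-square between libraries, averaged over genes, was 1.76 within sham and 1.53 within PNX, against 133 and 118 across groups. Counting error alone would give about 1, so the libraries of a group differed little beyond it. In GENCODE M21, exons of Tgfb2, Tgfb3, Tgfbr3 and Fst share between 115 and 297 bases with exons of other genes, whose reads may not be separable.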

Additional observations from a re-analysis of the deposited data

How the results depend on the processing

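With all libraries, 9 of the 10 genes passed an adjusted p of 0.01 under most scalings, filters and tests. The number was 8 in DESeq2's Wald test, with counts summed over transcripts and with the scaling to endothelial markers. With a log2 fold change beyond 1 as well, 1 gene passed under each of these settings. It was also 1 in glmTreat, which was run for this second number only. The number of lower genes was 3 in the main analysis and 1 with the scaling to endothelial markers. That scaling also turned the direction of Tgfbr1 (log2 fold change 0.0397), Inhbb (0.00508) and Smad3 (0.19). With each library left out in turn, between 8 and 9 genes passed the adjusted p, between 2 and 3 of them lower, and 1 the fold threshold. With the replicate block the numbers were 9, 3 and 1, and 46 of the pathway genes passed, as in the main analysis, so the block changed no call among the 10 genes. Leaving out a library gave log2 fold changes between 1.73 and 2.38 for Inhba and between 0.63 and 0.77 for Fst, the genes with the fewest counts, and between 41 and 43 called pathway genes. Of 120 comparisons of a gene's log2 fold change with an alternative, 113 kept direction and call. The call was lost in 6, of which 5 were for Inhbb and 1 for Tgfbr1, and gained in 1, for Smad3, and the 3 changes of direction were among these. The alternative of taking each transcript row of Tgfb1 in turn was not run, since the tables hold 1 row. With 2 libraries per group, changes in the genes under 200 normalized counts carry the widest intervals.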
